A study of Mus musculus with 31 samples.

Results

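DNA methylation was compared between 2 groups of oocytes from mouse secondary follicles, 5 libraries titled Type4 (replicates 1, 2, 4, 5 and 6) and 5 titled Type5a (replicates 1, 4, 5, 6 and 7), which are 10 of the 31 libraries of a series on 9 stages of follicle growth. The 10 were picked by their titles, with earlier results of these data known. All came from B6D2F1 mice, the first-generation cross of C57BL/6 and DBA/2, and both stages carry the same tissue label. Nothing in the labels gives a treatment, an age or a diameter, or says how many oocytes or animals stand behind a library, so a p-value here reflects variation among libraries alone, some of which may be technical. The labels also hold a developmental stage, which names embryos against what titles and tissue say, and it was left aside. The method was reduced representation bisulfite sequencing, in which MspI cuts DNA at CCGG so that mostly CpG-rich fragments are read, and bisulfite turns unmethylated cytosine into a base read as T.

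Oocytes lose most of their DNA methylation during embryonic life, and new methylation is set after birth in the growing follicle. It is laid down by DNMT3A with its cofactor DNMT3L, mostly across transcribed gene bodies, and it includes the imprints that a mother passes on. Most CpG islands stay unmethylated throughout. Somatic cells of a female, such as the granulosa cells around an oocyte, differ in 2 known ways: the CpG islands of their inactive X are methylated, and so are the promoters of many germline genes.

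A level here is the percentage of reads over CpG sites that were methylated. Reads of sites covered 5 or more times were added up in fixed tiles of 100 bp with at least 3 such sites. Reads over sites ran from 7949652 (Type4 replicate 4) to 57330602 (Type4 replicate 6) per library, and well-read sites (5 reads or more) from 373254 (Type4 replicate 4) to 775349 (Type5a replicate 7). Of the tiles, 18236 were measured in all 10 libraries (17193 autosomal, 1040 on X and 3 on Y), and library values are means over these. Tiles were sorted by their level in other stages, Type2 from primordial follicles and Type7 from antral follicles, so that no Type4 or Type5a value entered the sorting. Gained tiles (992) had at most 10% in Type2 and at least 80% in Type7. Tiles low in both (5545) had at most 10% in each, and tiles high in both (3473) had at least 50% in each. A further 1081 tiles went from at most 10% to a partial level between 10 and 80%, and 6572 tiles were already partial in Type2, between 10 and 50%.

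Promoters give these classes a concrete form. The sequences are RefSeq promoters of build GRCm38.p6, printed 5′ to 3′ along the gene for the 250 bases before its start. Each was placed on the mm9 sites by the spacing and flanking bases of its CpGs, and coordinates are those mm9 positions. Capitals mark each CpG that at least 1 of the 10 libraries read at least 5 times. The level of a promoter was taken over these bases and the 50 that follow, and libraries can read different CpGs of it. The promoters of Mcts2 (chr2:152512634-152512883, plus strand), an imprinted retrogene, and Plagl1 (chr10:12810388-12810637, plus strand), an imprinted zinc-finger transcription factor, are shown because growing oocytes methylate them.
Mcts2: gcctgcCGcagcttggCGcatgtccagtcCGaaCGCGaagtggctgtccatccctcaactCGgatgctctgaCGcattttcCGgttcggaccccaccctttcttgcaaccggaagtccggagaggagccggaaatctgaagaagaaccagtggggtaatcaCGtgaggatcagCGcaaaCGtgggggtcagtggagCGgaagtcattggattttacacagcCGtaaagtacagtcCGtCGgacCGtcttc
Plagl1: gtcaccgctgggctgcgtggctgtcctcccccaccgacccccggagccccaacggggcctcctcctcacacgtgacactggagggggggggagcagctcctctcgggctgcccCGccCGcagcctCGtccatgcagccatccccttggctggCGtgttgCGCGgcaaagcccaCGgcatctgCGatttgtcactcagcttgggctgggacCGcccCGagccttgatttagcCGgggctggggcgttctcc
The promoter of Ddx4 (chr13:113442519-113442768, minus strand), an RNA helicase of germ cells, is shown for the germline genes.
Ddx4: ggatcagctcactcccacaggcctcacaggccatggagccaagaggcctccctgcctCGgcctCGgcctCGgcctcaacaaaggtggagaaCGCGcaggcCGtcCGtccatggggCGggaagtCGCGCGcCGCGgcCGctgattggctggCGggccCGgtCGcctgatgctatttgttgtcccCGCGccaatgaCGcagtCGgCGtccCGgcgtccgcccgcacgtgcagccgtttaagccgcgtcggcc
The promoter of Gm15246 (chrX:165758077-165758326, plus strand), which runs head to head with Hccs, the gene of an enzyme that attaches heme to cytochrome c, is shown for the X chromosome.
Gm15246: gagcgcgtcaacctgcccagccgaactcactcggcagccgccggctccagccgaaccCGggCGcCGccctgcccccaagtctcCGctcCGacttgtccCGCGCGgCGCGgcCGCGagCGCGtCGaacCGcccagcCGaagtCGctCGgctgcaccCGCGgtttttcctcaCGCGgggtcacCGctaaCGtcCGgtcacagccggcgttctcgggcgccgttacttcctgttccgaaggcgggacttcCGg
The promoter of Romo1 (chr2:155969719-155969968, plus strand), a mitochondrial membrane protein, is shown because 1 library stood far above the others there.
Romo1: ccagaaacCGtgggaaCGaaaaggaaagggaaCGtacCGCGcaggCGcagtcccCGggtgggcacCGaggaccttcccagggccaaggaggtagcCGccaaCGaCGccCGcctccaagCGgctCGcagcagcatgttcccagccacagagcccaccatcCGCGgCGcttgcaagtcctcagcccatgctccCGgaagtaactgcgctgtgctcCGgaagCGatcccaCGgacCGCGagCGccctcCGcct

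The 2 stages had similar mean levels, and each stage spread widely. In Type4 the mean level was 38.7% in replicate 1, 44.7% in replicate 2, 27.5% in replicate 4, 37.9% in replicate 5 and 27.4% in replicate 6. In Type5a it was 29.7% in replicate 1, 24.995% in replicate 4, 34.4% in replicate 5, 26.3% in replicate 6 and 38.4% in replicate 7. Replicates 1, 2 and 5 of Type4 and replicate 7 of Type5a lay highest, and the stages overlapped. The mean was 35.2% ± 7.59 (SD, n = 5) in Type4 and 30.8% ± 5.62 (SD, n = 5) in Type5a. The difference of -4.46 points (Type5a minus Type4) was smaller than the SD within Type4, with an exact permutation p of 0.286, two-sided, and 0.343 after Benjamini-Hochberg adjustment over 6 library-level comparisons. With 5 libraries against 5 the smallest p this test can give is 0.00794.

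Gained tiles, the sequence that the grown oocyte methylates, scattered widely between libraries. In Type4 they stood at 27.9% in replicate 1, 37.3% in replicate 2, 9.05% in replicate 4, 25.7% in replicate 5 and 7.73% in replicate 6. In Type5a they stood at 28.7% in replicate 1, 11.3% in replicate 4, 22.9% in replicate 5, 15.4% in replicate 6 and 31.9% in replicate 7. Type4 thus fell into 3 libraries above 25% and 2 below 10%, while Type5a filled the range between 11.3 and 31.9%. The means were 21.5% ± 12.8 (SD, n = 5) and 22.0% ± 8.68 (SD, n = 5), a difference of 0.508 points with an exact permutation p of 0.944, both raw and adjusted. The sign of that difference turned without Type4 replicate 4 (-3.01 points), Type4 replicate 6 (-3.00), Type5a replicate 1 (-0.994) or Type5a replicate 7 (-1.96). For scale, the same tiles stood at 12.7% ± 3.92 (SD, n = 3) in Type3b, from primary follicles, and at 67.3% ± 7.09 (SD, n = 3) in Type5b, also from secondary follicles.

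Tiles that are low before and after growth were not equally low in all 10 libraries. They stood at 5.53, 7.65, 2.29, 5.31 and 2.06% in Type4 replicates 1, 2, 4, 5 and 6. They stood at 1.80, 1.02, 4.40, 1.92 and 5.53% in Type5a replicates 1, 4, 5, 6 and 7. The same 5 libraries, Type4 replicates 1, 2 and 5 and Type5a replicates 5 and 7, lay above the other 5 in this class, which held 4.57% ± 2.37 against 2.93% ± 1.93 (SD, n = 5 each). The difference of -1.64 points had an exact permutation p of 0.206 (adjusted 0.343). These 5 libraries were also the 5 highest in tiles that are low in Type2 and partial in Type7, at 17.7 to 29.5% against 3.83 to 8.42%. Tiles high in both stood at 72.0% ± 6.43 in Type4 and 67.8% ± 4.98 in Type5a (SD, n = 5 each), a difference of -4.17 points with an exact permutation p of 0.286 (adjusted 0.343).

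**Figure D1:**
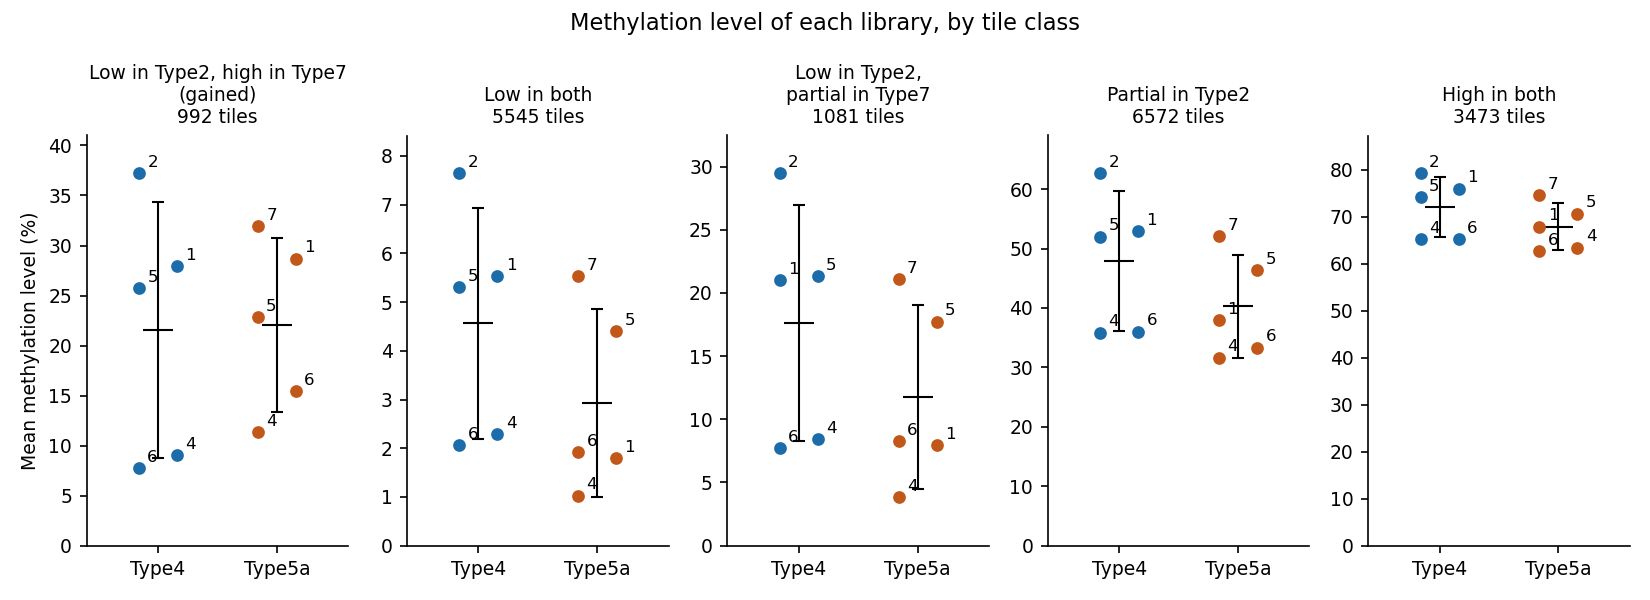
Mean methylation level in percent of each library (points, with replicate numbers) in 5 classes of tiles, with the mean and SD of the 5 libraries of a stage in black; each panel has its own axis from 0. Type5a replicate 1 is near the top for gained tiles, at 28.7%, and among the low libraries for tiles low in both, at 1.80%.

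Type5a held libraries in which gained tiles were methylated while tiles that stay low remained low. Type5a replicate 1 had the gained tiles at 28.7%, close to Type4 replicate 1 at 27.9%, yet its tiles low in both stood at 1.80% against 5.53%. Its tiles that are low in Type2 and partial in Type7 stood at 7.94% against 21.0%. Divided by the level of tiles low in both, the gained level was 5.05, 4.87, 3.95, 4.84 and 3.76 in Type4 replicates 1, 2, 4, 5 and 6. The same ratio was 15.96, 11.1, 5.20, 8.04 and 5.77 in Type5a replicates 1, 4, 5, 6 and 7. All 5 Type5a libraries lay above all 5 Type4 libraries, though Type5a replicate 5 by little. The means were 4.49 ± 0.594 and 9.20 ± 4.42 (SD, n = 5 each), and the difference of 4.71 had an exact permutation p of 0.00794, the smallest the design can give, and 0.0556 after Benjamini-Hochberg adjustment over 7 comparisons. This ratio was chosen after the library values were seen, so its p is no independent evidence. Without Type4 replicate 4 or 6 the raw exact permutation p was 0.0556. The highest ratios fell on the smallest divisors, 1.80% in Type5a replicate 1 and 1.02% in Type5a replicate 4, where a small change moves the ratio much. Tiles low in both averaged 1.16% in Type2 and 1.33% in Type7. Type5a replicate 4 reached 11.1 with gained tiles at 11.3%, against 3.95 with 9.05% in Type4 replicate 4.

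**Figure D2:**
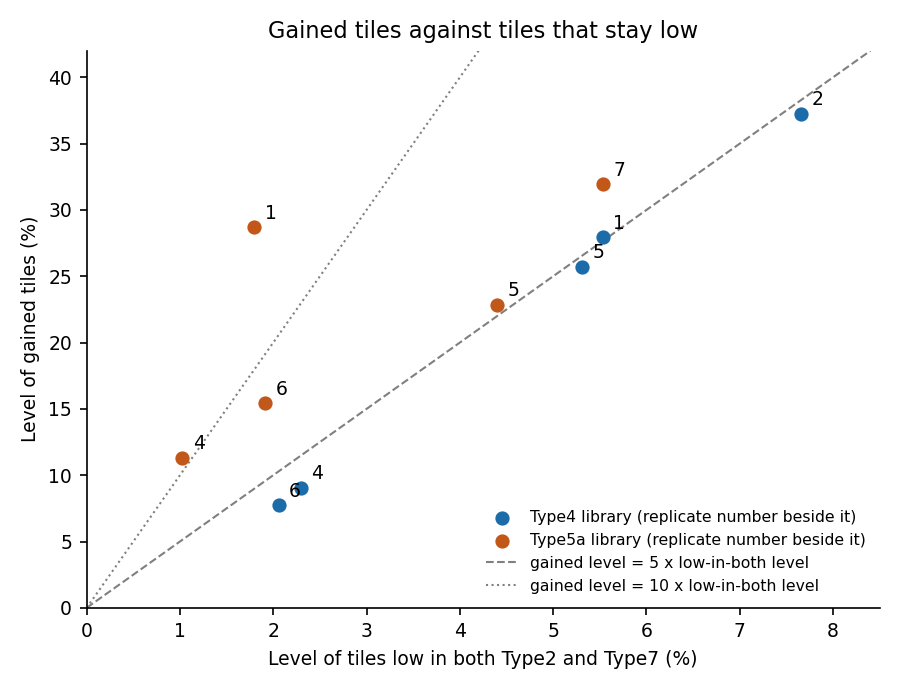
Level of the 992 gained tiles (vertical axis, percent) against the level of the 5545 tiles low in both Type2 and Type7 (horizontal axis, percent) in each of the 10 libraries, with replicate numbers; the grey lines mark ratios of 5 and 10. The 5 Type4 libraries lie at ratios of 3.76 to 5.05, and the 5 Type5a libraries at 5.20 to 15.96.

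Tiles on X differed between libraries of both stages. Among tiles low in both Type2 and Type7, the 138 on X stood at 10.6, 18.3, 4.49, 16.5 and 4.40% in Type4 replicates 1, 2, 4, 5 and 6. In Type5a replicates 1, 4, 5, 6 and 7 they stood at 2.28, 1.53, 9.12, 2.81 and 12.5%. The 5407 autosomal tiles of the class ranged from 1.01 to 7.38%, lower than the X tiles in each library. The same 5 libraries as above were high, Type4 replicates 1, 2 and 5 and Type5a replicates 5 and 7. These are also the libraries in which CpG-dense X tiles (at least 60 listed sites within 1 kb, over tiles that 2 or more libraries of each stage measured) lay above CpG-dense autosomal ones, by 6.75, 10.6, 9.94, 0.978 and 3.23 points. In the other 5 the difference was -3.86 to -0.662 points. Each library was averaged over the dense X tiles it measured itself, 51 to 62 in the 5 high libraries and 28 to 62 in the other 5. The 12 dense X tiles measured in all 10 libraries did not part the libraries in this way. In Type4 replicates 1, 2, 4, 5 and 6 their X minus autosomal difference came to -3.06, -3.01, -11.4, 10.1 and -3.26 points. It came to -11.1, -9.36, -4.41, -11.9 and -4.92 points in Type5a replicates 1, 4, 5, 6 and 7, so that only Type4 replicate 5 lay above 0. Its mean was -2.12 ± 7.73 points in Type4 and -8.35 ± 3.497 points in Type5a (SD, n = 5 each), and the stage difference of -6.23 points had an exact permutation p of 0.111 (adjusted 0.333).

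Promoters on X were uneven too, at the scale of single genes. Of 16 X promoters that are low in both Type2 and Type7, the number above 10% was 7, 10, 2, 4 and 3 in Type4 replicates 1, 2, 4, 5 and 6. It was 0, 1, 3, 1 and 5 in Type5a replicates 1, 4, 5, 6 and 7. Of 895 autosomal promoters of the same kind, 0.559 to 1.68% were above 10% in any library. The 16 X promoters include overlapping pairs, Gm15246 with Hccs and Nup62cl with Dnaaf6b, and each member is counted. Both Gm15246 and Hccs lay above 10% in Type4 replicates 1, 2, 5 and 6. Both Nup62cl and Dnaaf6b did so in Type4 replicates 1 and 2 and Type5a replicate 7. The Gm15246 promoter printed above stood at 14.8, 39.4, 0, 49.2 and 16.95% in Type4 replicates 1, 2, 4, 5 and 6, and at 0.260, 2.29, 0.513, 0.0322 and 1.81% in Type5a replicates 1, 4, 5, 6 and 7. All but Type4 replicate 4 (0 of 1019 reads, which allows a level of up to 0.294%) lay above every Type5a library. The overlapping window of Hccs did not part the stages in this way. It stood at 17.1, 80.6, 0, 42.8 and 26.1% in Type4 and at 0.195, 26.6, 0, 0 and 1.63% in Type5a, in the same order. Type5a replicate 4 (34 of 128 reads over 3 CpGs) there lay above Type4 replicates 1 and 6. Pdk3, a kinase that inhibits pyruvate dehydrogenase, stood above 25% in Type4 replicates 1 and 2 and Type5a replicate 5, at 29.2, 29.0 and 33.2%, and at or below 9.06% in the other 7 libraries. Ammecr1 stood at 27.7% in Type4 replicate 2 and 25.6% in Type5a replicate 5, and at or below 1.93% in the other 8.

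Promoters of germline genes were the second list. Of its 28 genes, 12 promoters were placed, and 4 to 8 were measured in a library, not the same ones in each. The number above 10% was 3 of 5, 2 of 4, 0 of 4, 5 of 7 and 1 of 8 in Type4 replicates 1, 2, 4, 5 and 6. It was 1 of 4, 0 of 4, 3 of 4, 0 of 4 and 5 of 8 in Type5a replicates 1, 4, 5, 6 and 7. Dazl, an RNA-binding protein that germ cells need, stood at 10.9, 47.2, 60.5 and 0% in Type4 replicates 1, 2, 5 and 6 and at 95.8 and 11.55% in Type5a replicates 5 and 7; it was not measured in the other 4. Ddx4 stood at 44.8% in Type4 replicate 5 and 72.6% in Type5a replicate 7, at 8.04% in Type5a replicate 1, and at 0% in Type4 replicate 6 and Type5a replicates 4 and 6. Rpl10l, a ribosomal protein gene of the testis, stood at 50.4, 41.8, 0, 9.60 and 15.1% in the 5 Type4 libraries and at 0, 8.77, 47.9, 0.0967 and 25.5% in the 5 Type5a libraries, in the same order. The list did not follow the X tiles throughout: Asz1, a germ cell gene of the piRNA pathway, stood at 21.0% in Type5a replicate 1 and Rpl10l at 15.1% in Type4 replicate 6, both low on X, and Dazl was measured in only 1 of the 5 libraries low on X. Some of these promoters were methylated in other oocyte stages as well. Rad51c, Rpl10l, Ddx4, Asz1 and Dazl averaged 47.2, 48.5, 41.4, 14.4 and 0% in Type6, another stage of the series. In Type7 they averaged 48.4, 0, 6.59, 15.6 and 0.346%, with 1 to 3 libraries behind each average. The part of somatic DNA in the tile levels was not tested.

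Without those 5 libraries, an alternative added after the data were seen, 2 Type4 and 3 Type5a libraries remained, with 21045 tiles measured in all 5 and 1340 of them gained. Mean levels were then 25.5 and 25.3%. Gained tiles stood at 8.30% in Type4 replicates 4 and 6 and at 18.7% in Type5a replicates 1, 4 and 6, a difference of 10.4 points. Tiles low in both stood at 2.20 and 1.57%. An exact permutation test of 2 against 3 gave 0.200 for the gained tiles and for the low tiles, with adjusted p of 0.400.

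Promoters of maternally imprinted genes, several of which the oocyte methylates as it grows, were the list nearest to the biology of the stage. Of 35 genes, 9 promoters were placed, and 3 to 7 were measured per library. The number above 10% was 3 of 7, 3 of 5, 0 of 5, 3 of 6 and 0 of 7 in Type4 replicates 1, 2, 4, 5 and 6. It was 3 of 7, 2 of 3, 1 of 6, 2 of 7 and 4 of 7 in Type5a replicates 1, 4, 5, 6 and 7. Mcts2 stood at 19.8, 26.02, 0.461, 25.1 and 4.57% in the 5 Type4 libraries and at 35.9, 25.6, 46.3, 47.3 and 48.2% in the 5 Type5a libraries. Only Type5a replicate 4 fell within the Type4 range, and the reads behind these values ran from 95 to 1118. The means were 15.2% ± 11.9 and 40.7% ± 9.77 (SD, n = 5 each), on the way to 87.3% in Type5b and 97.5% in Type7. Plagl1 stood at 75.6% in Type5a replicate 1 (34 of 45 reads; exact Clopper-Pearson 95% interval 60.5 to 87.1%, counting error only) and at 0 to 15.2% in the 6 other libraries that measured it. Zrsr1, an imprinted splicing factor gene, was uneven in both stages, at 5.99, 37.1, 0.794, 14.4 and 0% in Type4 and 24.5, 12.6, 0, 2.47 and 41.3% in Type5a. Fkbp6, a co-chaperone needed in meiosis, stood at 28.2, 73.4, 0, 25.2 and 0% in the 5 Type4 libraries. In Type5a it stood at 98.8% in replicate 6 (2862 of 2896 reads), 36.0% in replicate 7, 7.08% in replicate 5 and 0% in replicate 1 (0 of 425, which allows up to 0.706%), and replicate 4 did not measure it. Most promoters were low in both stages: over 1011 measured in all 10 libraries, the median level was 0.783% in Type4 and 0.579% in Type5a. They also varied little, with an SD under 5 points in 94.6% of them in Type4 and 94.9% in Type5a. Of the 1011, 1 was higher (0.0989%) and 1 lower (0.0989%) in all 5 Type5a libraries. These were Coro1a and Bmyc, with small differences of 0.904 and -1.65 points. Romo1 stood at 85.1% in Type5a replicate 6, against 0 to 16.5% in the other 9 libraries, and its neighbour Nfs1, a cysteine desulfurase, at 64.9% against 0 to 7.08%. The 2 windows overlap and share reads, and replicate 6 read fewer CpGs there than the others: 12 for Romo1 against 21 to 32, and 4 for Nfs1 against 19 to 30. Zdbf2 and Grb10 stayed at or below 4.68% in each library that measured them at these starts. They were also low in Type7, at 0.939 and 0.0741% on average. Igf2r was measured only in Type4 replicates 1 and 6 and Type5a replicates 1, 6 and 7. It stood at 0% in each of them and in Type7, though 0 of 35 reads in Type4 replicate 1 allows up to 8.57%. These promoters are among those counted as measured above.

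**Figure D3:**
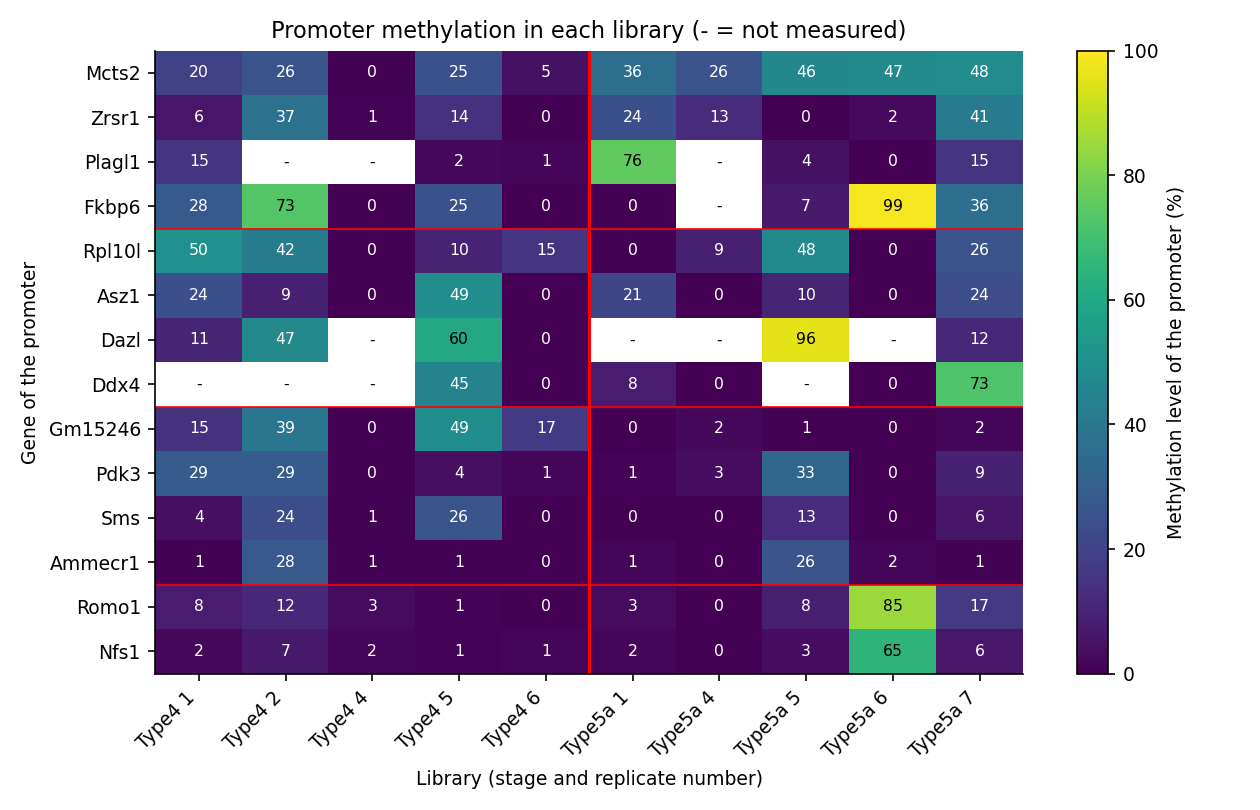
Methylation level in percent of 14 promoters (rows) in each of the 10 libraries (columns, Type4 left of the red line), with a dash where a library did not measure the promoter; rows hold imprinted genes, germline genes, X-linked genes and the pair Romo1 and Nfs1. Mcts2 lies at 25.6% or more in each Type5a library, and Romo1 and Nfs1 are high in Type5a replicate 6 alone.

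No single tile separated the stages by the test across all tiles. Each tile's methylated reads out of its total were modelled as quasi-binomial. The fit, to 84422 tiles measured in at least 2 libraries of each stage with all 31 libraries sharing the spread, called 0 tiles (0% of those tested); a call needed a Benjamini-Hochberg adjusted p below 0.05 together with 20 points or more between stages. Its lowest adjusted p was 0.0781, and 6000 tiles (7.11%) had an unadjusted p under 0.05. A fit on the 10 libraries alone called 0 (5.80% at an unadjusted p under 0.05), as did edgeR (2.04%). Limma on the levels called 100, of which 63 were higher in Type5a (0.0746% of the tiles tested) and 37 lower (0.0438%). Only 1 tile in each direction was measured in all 10 libraries, and 24 of the higher and 12 of the lower tiles were measured in 5 or fewer. The model called 28 (16 higher, 12 lower) of 34785 tiles without the 5 libraries named above, and up to 15 with 1 library left out.

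Tiles in which all 5 libraries of 1 stage lay above all 5 of the other were few. Of the 18236 tiles, 11 (0.0603%) were higher in Type5a and 61 (0.335%) lower. Gained tiles held 7 of the 11 (0.706% of gained tiles) and 1 of the 61. The named examples are the 5 in each direction with the largest difference at 20 or more reads in each library, and gene annotation of mm9 was not used here. The tile at chr16:11887701-11887800 stood at 28.5, 36.6, 0, 34.7 and 1.67% in Type4 and at 47.5, 85.5, 63.4, 83.6 and 62.3% in Type5a, and at 98.7% on average in Type7. The tile at chr11:49966201-49966300 stood at 28.5, 0, 1.00, 12.1 and 1.25% in Type4 and at 63.3, 29.5, 33.9, 56.7 and 44.5% in Type5a. The other 3, chr16:57169401-57169500, chr12:100791801-100791900 and chr9:37228501-37228600, differed by 28.5, 27.9 and 27.2 points, and all 5 were gained tiles. Their adjusted p in the quasi-binomial model ran from 0.158 to 0.650.

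Tiles lower in Type5a were of mixed classes. The tile at chr11:32114401-32114500 stood at 30.8, 100, 100, 58.3 and 18.6% in Type4 and at 9.09, 0, 10.96, 3.25 and 8.29% in Type5a. The tile at chrX:108990601-108990700 stood at 47.1, 100, 29.7, 89.9 and 17.6% in Type4 and at 4.55, 0, 5.71, 0 and 3.37% in Type5a. In both tiles Type4 ranged widely while all 5 Type5a libraries were at or below 10.96%. The tiles at chr4:87148901-87149000, chr11:5887501-5887600 and chr8:51384101-51384200 were lower by 37.4, 35.4 and 33.2 points. Adjusted p ran from 0.191 to 0.782 for these 5.

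Libraries of Type4 lay farther apart, tile by tile, than those of Type5a. The variance between the libraries of a stage, averaged over tiles, was 230 in Type4 (square root 15.2 points) and 175 in Type5a (13.2 points), against 47.7 to 148 in the other stages, which have 3 libraries each and miss some of the tiles. Divided by the mean level times its rest to 100%, the variance was 0.152 in Type4 and 0.121 in Type5a, and 0.124 in Type3a, from primary follicles. Counting error at the observed reads accounts for 4.04% of it in Type4 and 4.56% in Type5a, if each read is taken as a separate molecule. An SD of 20 points or more was found in 3242 tiles (17.8%) in Type4 and 2371 in Type5a. The mean distance of a library from the 4 others of its stage was 14.05 ± 1.41 points in Type4 and 12.1 ± 0.924 points in Type5a (SD, n = 5 each). The difference of -1.99 points had an exact permutation p of 0.0317 and 0.190 after adjustment, and since libraries of a stage share pairs that p is approximate. It was -0.624 points without Type4 replicate 2, and -2.90 and -2.87 without Type4 replicate 1 or 5, each with an adjusted exact permutation p of 0.0476. Without Type5a replicate 1 it was -1.18. Without the 5 libraries named above the difference turned to 0.923 points.

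The spread was concentrated in part of the tiles. The 10% of tiles with most variance held 43.7% of it in Type4 and 44.8% in Type5a. Tiles partial in Type2 were 36.0% of tiles and held 48.8% of the variance in Type4 and 49.0% in Type5a. Gained tiles were 5.44% of tiles and held 13.4 and 13.2%, the highest share per tile of the 5 main classes. Tiles low in both were 30.4% of tiles and held 13.1 and 10.6%. Of gained tiles, 54.3% had an SD of at least 20 points in Type4 and 42.9% in Type5a.

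**Figure D4:**
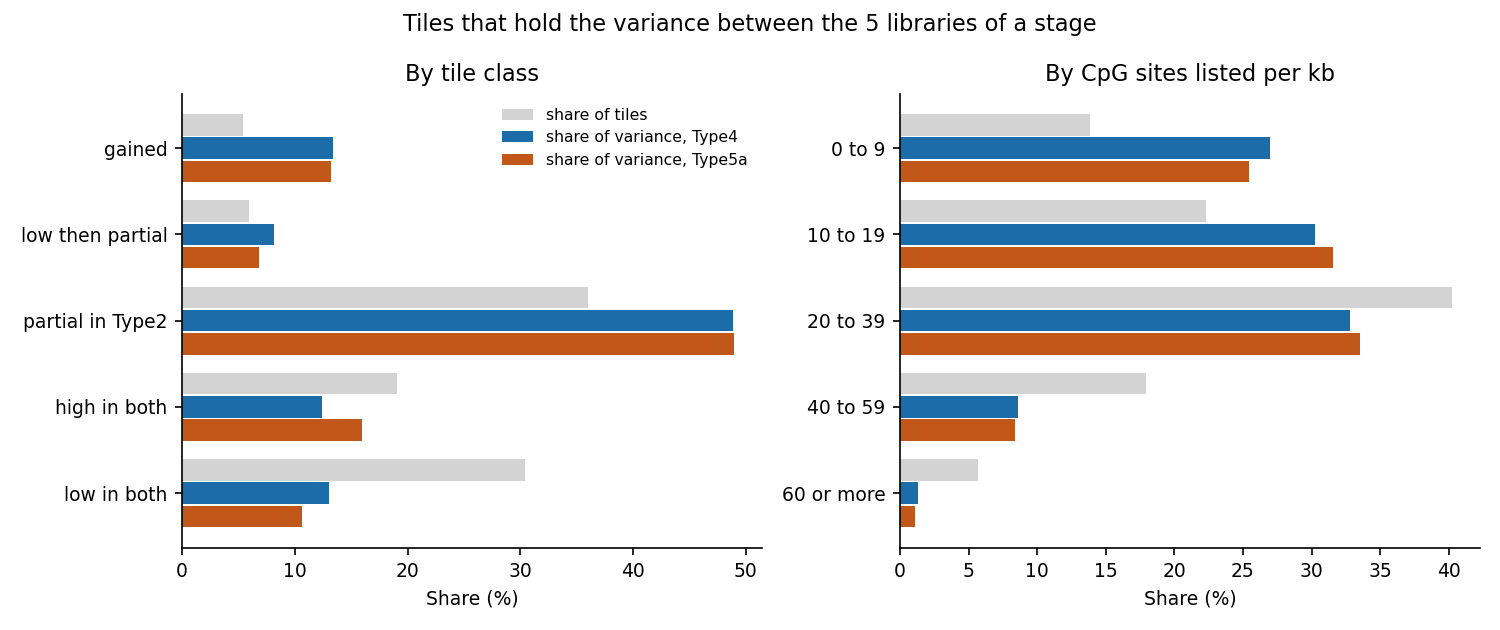
Share in percent of the 18236 tiles (grey) and of the variance between the 5 libraries of Type4 (blue) and Type5a (orange), by tile class (left) and by the number of CpG sites listed within 1 kb around the tile (right). Gained tiles, partial tiles and tiles with under 20 listed sites hold more variance than their share of tiles.

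Tiles with few listed sites around them carried more of the spread than tiles with many. Listed sites are those read in any library, so their number is not the CpG content of the genome. Tiles with at most 9 listed sites within 1 kb were 13.9% of tiles and held 26.97% of the variance in Type4 and 25.4% in Type5a. Tiles with 60 or more were 5.67% of tiles and held 1.30 and 1.05%. Tiles in placed promoters were 6.47% of tiles and held 0.495 and 0.445%, at mean levels of 1.41 and 1.08%. The X held 5.70% of tiles and 7.23 and 7.55% of the variance. Its tiles had a higher mean level than autosomal ones in both stages (48.5 against 34.4% in Type4). Divided by the mean level times its rest to 100%, the variance was 0.147 on X and 0.153 on autosomes in Type4. In Type5a it was 0.124 and 0.121, so X and autosomes were close on this scale. A tile near 0 or 100% cannot vary much, and tiles with a stage mean of 30 to 40% (10.3% of tiles in Type4 and 9.01% in Type5a) held 21.6 and 17.7% of the variance.

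The tiles that spread in one stage also spread in the other, and in further stages. The 10% of tiles with most variance (1823 in each stage) shared 685 tiles, 37.6% of each list, while a list holds 10% of all tiles. In Type5a, Type4's most variable tiles had a root mean variance of 21.5 points against 11.9 in the rest. In Type4, Type5a's most variable tiles had 24.1 against 13.8. In the other stages, Type4's most variable tiles had 10.2 (Type2) to 19.8 points (Type5b), against 6.45 (Type2) to 11.1 (Type5b) in the rest. Tiles with a mean below 10% in Type4 were 30.7% of tiles and had a root mean variance of 3.72 points there. The part of level in the shared spread was not tested. The most variable tiles of Type4 and Type5a had few listed sites around them, with a median of 13 and 14 within 1 kb against 27 in the rest.

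A few libraries set the direction of the spread in each stage. In Type4's most variable tiles, replicate 2 was the highest library in 56.6% and replicate 4 the lowest in 52.2%. Over all tiles these shares were 47.5 and 38.0%. Replicate 2 stood above 90% in 17.99% of the most variable tiles, against 5.13% of all tiles. Replicates 4 and 6 stood below 10% in 51.8 and 49.6% of them, against 41.6 and 41.4% of all tiles. One axis, with replicate 2 at 1 end and replicates 4 and 6 at the other, held 55.8% of the variance. In Type5a's most variable tiles, replicate 7 was highest in 36.0% and replicate 4 lowest in 41.0%, against 45.3 and 36.7% over all tiles. The first axis, with replicates 7 and 5 against 6 and 4, held 44.8%, and a second that set replicate 6 against replicate 4 held 24.2%. In the most variable tiles, replicate 6 stood both above 90% (7.73%) and below 10% (43.9%) more often than replicates 1 and 7. Over all tiles its shares were 2.07 and 42.9%. The closest pair in Type4 was replicates 4 and 6, 9.26 points apart on average, and the farthest replicates 2 and 4, at 19.9. In Type5a replicates 5 and 7 were 9.46 apart and replicates 6 and 7 were 15.7 apart.

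Single tiles could be fully methylated in one library and empty in another of the same stage. The tile at chr6:48570201-48570300, with the largest SD in Type4, stood at 93.5, 100, 0, 66.8 and 0% there, and at 0, 0, 61.7, 0 and 0% in Type5a. The tile at chr16:44499601-44499700 stood at 81.9, 93.8, 0, 0.939 and 0.117% in Type4 and at or below 19.5% in Type5a. In Type5a the largest SD was in chr9:57685801-57685900, 1265 bp from the placed start of Arid3b, a DNA-binding protein gene. It stood at 0, 0, 77.6, 100 and 67.6% in Type5a and at 23.0, 30, 0, 84.4 and 0% in Type4. The tile at chr6:28128201-28128300 stood at 100% in Type5a replicate 1 and at or below 7.49% in the other 4. For each stage the 6 tiles with the largest SD were looked up, at most 1 per 10 kb and with 20 or more reads in each library. In each of them the highest library of that stage stood above 90% and the lowest at 4.89% or below.

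A library's deviation was shared by neighbouring tiles and faded with distance. Over adjoining tiles, which can be read by the same fragments, deviations from the stage mean had a mean correlation of 0.583 over the 5 Type4 libraries and 0.478 over the 5 Type5a libraries (5656 pairs of autosomal tiles). At 200 bp it was 0.218 and 0.194, and from 600 to 1000 bp 0.221 and 0.148. From 5.1 to 20 kb it was 0.161 and 0.0899, and beyond 100 kb 0.0192 and 0.0160. These are descriptions across tiles, which share library, depth and fragments.

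**Figure D5:**
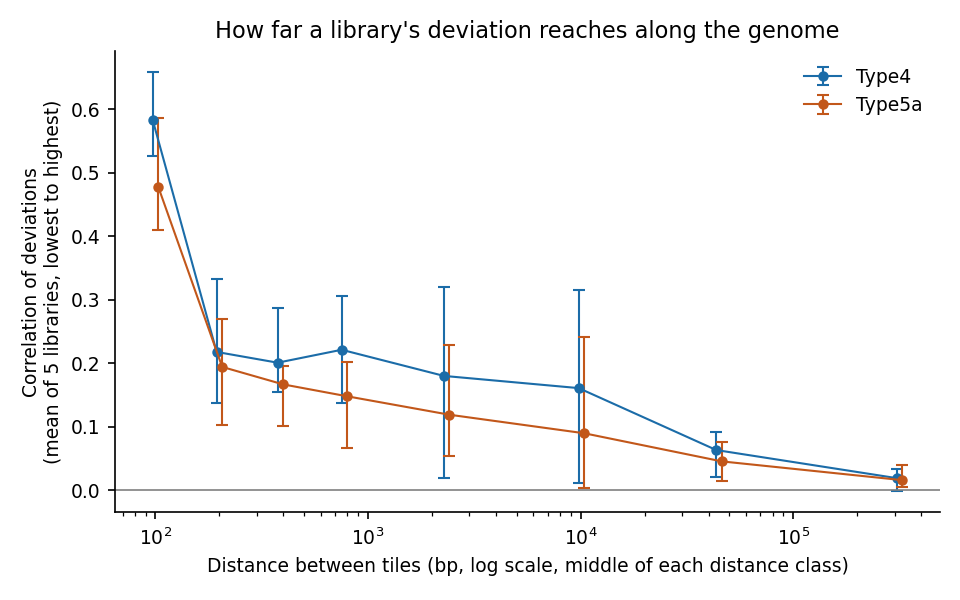
Correlation of a library's deviations from its stage mean between pairs of autosomal tiles, against the distance between the tiles in bp on a log scale; points are means of 5 libraries and bars run from the lowest to the highest library. The correlation drops from 0.583 (Type4) and 0.478 (Type5a) in adjoining tiles to about 0.2 at 200 bp, and to 0.0192 and 0.0160 beyond 100 kb.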

How the data were processed

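Methylation was measured by reduced representation bisulfite sequencing, with fragments of 200 to 700 bp selected per the labels' protocols. The submitters' processing notes name BSMAP 2.89 and build mm9; for alignment and methylation calling the settings were not given in the sources used here. The deposited tables list for each CpG site a count of reads, a count of methylated reads and the authors' rounded fraction of methylated reads; no listed site of the 10 libraries has fewer than 3 reads. Levels were recomputed from the counts over sites with at least 5 reads, in tiles of 100 bp with at least 3 such sites. Median reads per site ran from 12 to 35. No conversion rate or duplicate removal is stated, so intervals cover counting error only. Of 20 pairs of libraries within a stage, none had more than 1.01% of sites with identical counts.

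Library values were compared with exact permutation tests, two-sided, and tiles with a quasi-binomial model, with limma 3.58.1 and edgeR 4.0.16 in R 4.3.3 as alternatives; scipy 1.17.1 with numpy 2.4.6 under Python 3.11.15 gave the other tests, pandas 2.3.3 the tables and matplotlib 3.10.9 the figures. On simulated data the model gave small p-values more often than its nominal rate. Of the RefSeq promoters, 8113 were placed by at least 6 sites at 1 position, and the 8103 on their RefSeq chromosome (99.9%) were used. Gene annotation of mm9 was not used here. Named tiles were, among tiles measured in all 10 libraries at 20 or more reads each, the 5 per direction without overlap and with the largest difference, and the 6 per stage with the largest SD, at most 1 per 10 kb. Tiles of chromosome 18 were counted and not named. The libraries, classes and gene lists were chosen with earlier results of these data known, and the promoters described singly were chosen after their values were seen. Alternatives covered read and site minimums, tile size, autosomes only, class limits, each library left out and the other tests.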

Additional observations from a re-analysis of the deposited data

Results flagged for a closer look

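Reads on the mitochondrial genome stood at 493 RPM, relative to all reads over sites, in Type5a replicate 6, against 15.4 to 65.2 in the other 9 libraries. This library's gap to the next exceeded Dixon's 95% critical value of 0.71 for 5 samples, in 1 of 20 groups and measures looked at. Chance flags about 1 in 20 groups. It is also the library with Romo1 at 85.1%, Nfs1 at 64.9% and Fkbp6 at 98.8%, and the relation between these was not tested.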

How the results depend on the processing

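The differences in mean level (-6.38 to -0.208 points), tiles low in both (-2.44 to -0.623), tiles high in both (-5.95 to -0.533) and dense X minus autosomal level (-11.3 to -2.81) kept their direction under each alternative run. They passed the threshold under none, but 4 pairs or 2 libraries against 3 could not have reached it. For gained tiles the sign turned with at least 10 reads per site (-0.0991), with wider tile classes (-0.445) and with single libraries left out (-3.01 to 4.52). The distance within a stage ran from -2.90 to -0.624 with a library left out, passing the threshold without Type4 replicate 1 (-2.90) or 5 (-2.87), both at an adjusted exact permutation p of 0.0476, and turned to 0.923 without the 5 libraries high on X. The ratio of gained tiles to tiles low in both ran from 3.07 to 5.78 with a library left out; its raw exact permutation p was 0.0556 without Type4 replicate 4 (4.43) or 6 (4.55) and 0.2 without the 5 libraries (8.11), and the stages overlapped slightly with at least 10 reads per site, at least 5 sites per tile, tiles each library measures or wider classes. Tile calls were 10 with 200-bp tiles, 100 with limma, 182 with every stage in the residual degrees of freedom, 28 without the 5 libraries and 0 to 15 with a library left out (5 without Type4 replicate 1, 4 without Type4 replicate 2, 5 without Type5a replicate 5, 15 without Type5a replicate 7); the cause was not tested. Partial tiles held 55.4 and 54.5% of the variance in Type4 and Type5a with at least 10 reads per site, and the 10% of tiles with most variance 51.0 and 52.7% with at least 5 sites per tile.

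The stages share 4 replicate numbers. Same-numbered libraries correlated in their deviations at 0.000790 to 0.233, and 1 of 4 correlated best with its own number. Other pairs ran from -0.299 to 0.270. What a shared number stands for is not known, and 4 pairs cannot decide it. With the replicate block, the ratio differed by 5.67 (exact permutation p = 0.125, the smallest 4 pairs can give) and the tile model called 0 of 61523 tiles. Depth limits low levels: a promoter at 0 of 53 reads allows up to 5.66%, as for Gm13709 in Type4 replicate 4.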

Other observations

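Further promoters differed widely between libraries of a stage. Gm13709, a gained promoter at 98.5% in Type7, stood at 22.7, 41.98, 0, 54.2 and 0% in Type4 replicates 1, 2, 4, 5 and 6 and at 2.44, 0, 7.91, 0 and 9.40% in Type5a replicates 1, 4, 5, 6 and 7. Gm32352, also gained and at 100% in Type7, stood at 48.6% in Type5a replicate 1 (37 reads) and at or below 14.2% in the other 9 libraries. Map7d3, an X-linked gene, stood at 47.8% in Type4 replicate 4 (46 reads), a library low at most other X promoters, and at or below 10.5% in the other 9. Sms, the X-linked spermine synthase, stood at 24.1% in Type4 replicate 2 and 25.9% in Type4 replicate 5, at 12.5% in Type5a replicate 5, and at or below 5.74% in the other 7. Asz1, a germ cell gene of the piRNA pathway, is on the germline list and stood at 24.3, 8.93, 0, 49.2 and 0% in the 5 Type4 libraries and at 21.0, 0, 10.5, 0 and 23.8% in the 5 Type5a libraries, in the same order. These promoters were chosen after their values were seen.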
